A study of Mus musculus with 6 samples.

Results

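The 8 genes described here, Nphs1, Cd2ap, Magi2, Podxl, Ptpro, Synpo, Plce1 and Wt1, belong to the podocyte, the epithelial cell on the outer face of the glomerular capillary. They were taken by symbol from the deposited table of 17684 genes, in which 8 of 8 were found and 8 of 8 had enough counts to be tested. Kidney RNA was sequenced from 3 mice of the Db group and 3 mice of the Db + Ato10 group, 1 library per mouse. All 6 were db/db mice, which lack a working leptin receptor and become obese and diabetic, of a strain labelled C57 BLKS/L and 50 weeks of age. The Db + Ato10 mice had been given atorvastatin, a statin, at 10 mg/kg on dosing days over 40 weeks, and the Db mice saline over the same 40 weeks. A second field of the records names atorvastatin for all 6 mice, and the groups here follow the field that separates saline from drug. By the study's account most statin-treated mice had died before the end, and the number of untreated Db mice also fell, to a lesser degree. The libraries of both groups thus come from survivors.

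Podocytes wrap the capillary with interdigitating foot processes, and the gaps between these are bridged by the slit diaphragm, a thin protein sheet that holds back plasma proteins. Nephrin spans the gap, adaptor and scaffold proteins tie it to actin inside the foot process, and a negatively charged coat covers the upper surface. Inherited loss of several of these proteins leads to heavy proteinuria, and diabetic kidney disease is known for podocyte injury and loss. In RNA of whole kidney, fewer podocytes and less RNA per podocyte cannot be told apart.

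Library totals were 13134930, 11381678 and 12426051 counts for Db mice, and 14578023, 14667909 and 13133241 for treated mice. Some libraries stood apart. Db replicate 1 had 2 counts over 4 Y-linked genes, beside 1419 to 2116 in the other 5 libraries, although the study describes male mice. The first principal component of all tested genes held 71.1% of the variance, and on it treated replicates 1 and 2 had 107 and 46.1. Db + Ato10 replicate 3, at -18.8, lay nearer to the Db libraries, which ran from -55.4 to -26.9. Markers of the proximal tubule, the bulk of the kidney, summed to 5454, 4342 and 5455 TPM (counts scaled to length and to an equal total) for Db mice. They summed to 755.9, 2491 and 5054 TPM for treated mice 1 to 3. Results are therefore also given without single libraries. Levels below are CPM, counts scaled to library size with TMM factors, unless TPM is named. A gene was called when its fold change was over 1.5 and its edgeR adjusted p was under 0.05.

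Of the 8 genes, 0 were called, beside 0 of 13679 genes tested (0%). At an unadjusted p under 0.05 edgeR counted 0 of the 8, beside 2314 of all genes (16.9%). DESeq2 called 0 of the 8 and 884 of all genes (6.46%). The groups overlapped for 8 of 8, whereas for 3180 tested genes (23.2%) all 3 libraries of 1 group exceeded all 3 of its counterpart. The log2 fold change was above 0 for 5 members and below 0 for 3, with a median of 0.078, beside a median of -0.0063 over all genes tested. The 95% interval of the log2 fold change included 0 for 8 of 8. For 4 of them, Nphs1, Wt1, Podxl and Ptpro, it reached past a fold change of 1.5 in both directions, so differences of that size were not excluded either way. For Magi2, Cd2ap, Synpo and Plce1 it reached past that size in 1 direction.

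**Figure D1:**
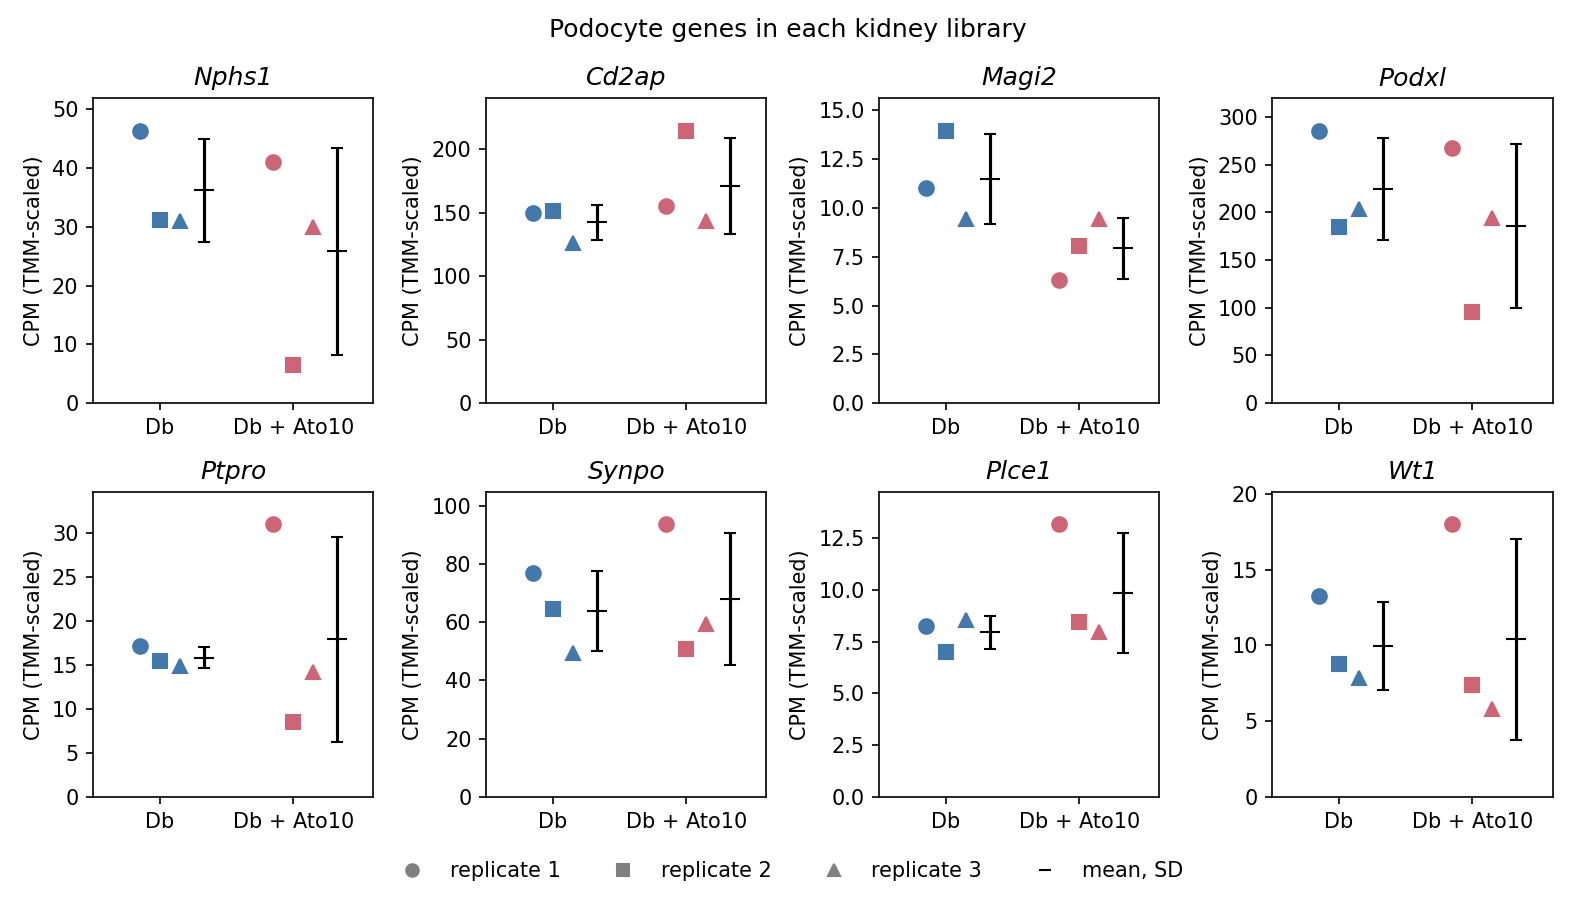
Level of each podocyte gene in CPM (vertical axis, from 0) in the 3 Db and 3 Db + Ato10 libraries. Symbols give the replicate, and the black bars the mean and SD of each group (n = 3). The groups overlap for each gene, and Nphs1 in Db + Ato10 replicate 2, at 6.48 CPM, is far under the other 5 libraries.

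Nphs1 (NCBI Gene 54631) encodes nephrin, the protein whose extracellular domains meet in the slit between foot processes. It had 46.3, 31.2 and 31.0 CPM in Db replicates 1 to 3, and 41.0, 6.48 and 29.9 CPM in Db + Ato10 replicates 1 to 3. Db + Ato10 replicate 2 was thus the single low library, with 96 counts where the others had 360 to 623, and the other 2 treated libraries lay close to the Db range. Means with SD (n = 3) were 36.2 ± 8.79 CPM for Db mice and 25.8 ± 17.6 CPM for treated mice. The log2 fold change was -0.49 with a standard error of 0.60 and an interval from -1.92 to 0.95 (edgeR adjusted p = 0.667, exact permutation p = 0.4). Leaving out Db + Ato10 replicate 2 brought it to -0.011, and leaving out replicate 1 of the same group to -0.99. With Db replicate 1 set aside it was -0.25. On all 6 libraries limma-voom gave -0.84 (adjusted p = 0.490), limma on TPM -0.79 (adjusted p = 0.427) and edgeR with a replicate block -0.78 (adjusted p = 0.473).

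Cd2ap (NCBI Gene 12488), which encodes the adaptor that links nephrin to actin and to signalling, went the other way in the same library. Its levels were 150, 151 and 126 CPM in Db replicates 1 to 3, and 155, 215 and 144 CPM in Db + Ato10 replicates 1 to 3. The library with the least Nphs1 thus had the most Cd2ap. Its log2 fold change was 0.27 (standard error 0.19, interval -0.20 to 0.73, edgeR adjusted p = 0.480, exact permutation p = 0.4), and 0.087 without Db + Ato10 replicate 2. Cd2ap is not confined to podocytes, since tubular epithelium and other kidney cells also make it.

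Magi2 (NCBI Gene 50791) encodes a scaffold protein that binds nephrin from the inside. It stood at 11.05, 14.0 and 9.45 CPM in Db replicates 1 to 3, and at 6.32, 8.04 and 9.45 CPM in Db + Ato10 replicates 1 to 3. The groups met at Db replicate 3, with 117 counts, and Db + Ato10 replicate 3, with 120 counts. The other 2 treated libraries lay under each Db library. Among the 8 genes it had the smallest p, with a log2 fold change of -0.53 (standard error 0.25, interval -1.13 to 0.064, edgeR adjusted p = 0.326, exact permutation p = 0.2). The value stayed below 0 in each of 15 alternatives, from -0.67 to -0.28, with adjusted p from 0.162 to 0.744 under the named tool of each. Without Db + Ato10 replicate 3 it was the 1 member at an unadjusted p under 0.05, beside 4038 of 13517 genes in that fit.

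Podxl (NCBI Gene 27205) encodes podocalyxin, the charged sialoprotein of the upper podocyte surface, which endothelial cells also carry. It had 286, 185 and 204 CPM in Db replicates 1 to 3, and 267, 95.5 and 194 CPM in Db + Ato10 replicates 1 to 3. As with Nphs1, Db and Db + Ato10 replicates 1 were high and Db + Ato10 replicate 2 was low. Between the groups the log2 fold change was -0.28 (standard error 0.38, interval -1.20 to 0.64, edgeR adjusted p = 0.703, exact permutation p = 0.5), and 0.054 without Db + Ato10 replicate 2.

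Ptpro (NCBI Gene 19277) encodes a receptor tyrosine phosphatase of the same upper surface, also known as GLEPP1. Its Db libraries were close together at 17.2, 15.4 and 14.9 CPM, while the treated libraries had 31.0, 8.51 and 14.3 CPM. Db + Ato10 replicate 1 was above, and Db + Ato10 replicates 2 and 3 below, each Db library, a 3.65-fold range within the treated group beside 1.15-fold within the Db group. With so wide a spread, the log2 fold change was 0.18 (standard error 0.45, interval -0.90 to 1.26, edgeR adjusted p = 0.841, exact permutation p = 1). Leaving out Db + Ato10 replicate 1 turned it to -0.47, and leaving out replicate 2 of that group gave 0.54.

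Synpo (NCBI Gene 104027) encodes synaptopodin, an actin-binding protein of the foot process. Its levels were 77.1, 64.6 and 49.6 CPM in Db replicates 1 to 3, and 93.6, 50.8 and 59.5 CPM in Db + Ato10 replicates 1 to 3. The treated libraries lay above, within and within the Db range. For Synpo the log2 fold change came to 0.092 (standard error 0.28, interval -0.57 to 0.75, edgeR adjusted p = 0.868, exact permutation p = 0.9), and -0.20 without Db + Ato10 replicate 1 or -0.060 without Db replicate 3.

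Plce1 (NCBI Gene 74055) encodes phospholipase C epsilon, a signalling enzyme whose inherited loss causes nephrotic syndrome in children. It had the lowest mean TPM of the 8 in both groups, though Magi2 was lower in Db + Ato10 replicate 1. In CPM it had 8.26, 7.02 and 8.56 CPM in Db replicates 1 to 3. Db + Ato10 replicates 1 to 3 had 13.2, 8.44 and 7.96 CPM, so 1 treated library lay above the Db range and the other 2 within it. For Plce1 the log2 fold change came to 0.31 (standard error 0.26, interval -0.32 to 0.94, edgeR adjusted p = 0.531, exact permutation p = 0.5), and 0.053 without Db + Ato10 replicate 1.

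Wt1 (NCBI Gene 22431) encodes the zinc finger transcription factor that maintains podocyte gene expression in the adult kidney. It had 13.3, 8.76 and 7.84 CPM in Db replicates 1 to 3, and 18.0, 7.36 and 5.83 CPM in Db + Ato10 replicates 1 to 3. The highest library and the lowest were both treated, and the lowest had 74 counts, the fewest of any member in any library. The log2 fold change was 0.063 (standard error 0.47, interval -1.06 to 1.19, edgeR adjusted p = 0.950, exact permutation p = 0.9). The sign turned when Db + Ato10 replicate 1 was left out (-0.58), and also for Db replicate 2 (-0.018) or Db replicate 3 (-0.083). With 3 libraries in each group the smallest exact permutation p (two-sided, 20 divisions) was 0.1.

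**Figure D2:**
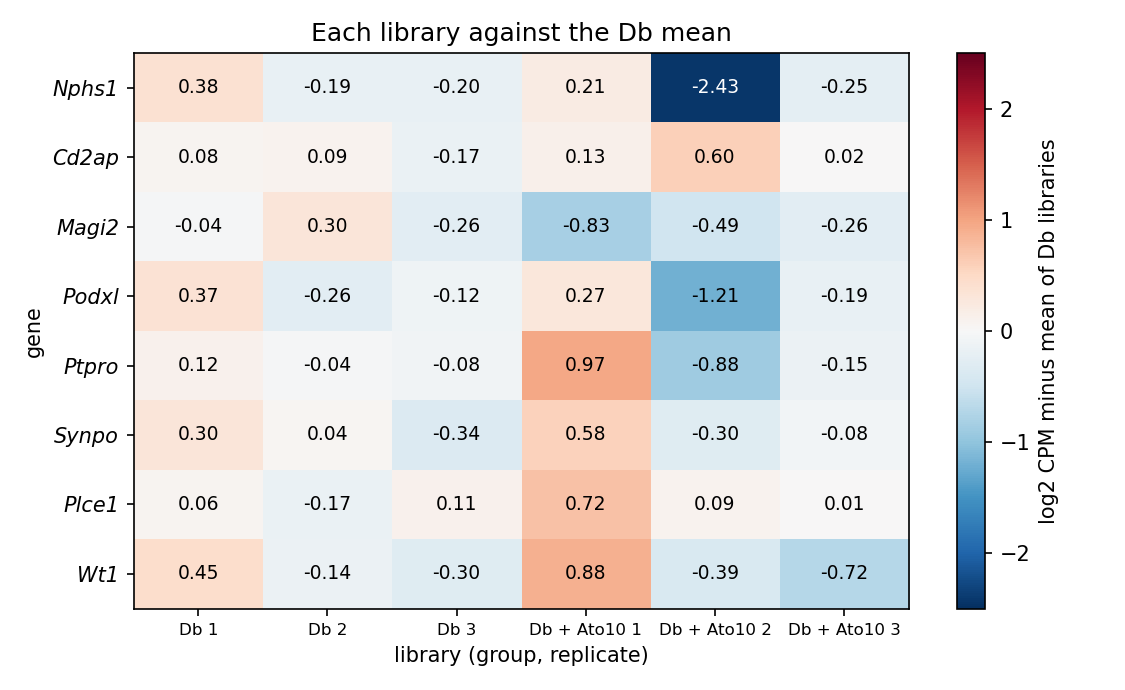
Log2 CPM of each gene (rows) in each library (columns) minus the mean of the 3 Db libraries, with red above and blue below it. Db + Ato10 replicate 2 reaches -2.43 for Nphs1, -1.21 for Podxl and 0.60 for Cd2ap, and Db + Ato10 replicate 1 reaches 0.97 for Ptpro.

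Read library by library, the median over the 8 genes was above the Db mean in 1 treated mouse and below it in 2. Relative to the Db mean, the median log2 deviation of the 8 genes was 0.43, -0.44 and -0.17 in Db + Ato10 replicates 1 to 3. It was 0.21, -0.090 and -0.18 in Db replicates 1 to 3. Db + Ato10 replicate 1 was the highest library for 4 members and Db + Ato10 replicate 2 the lowest for 3. Of all genes tested, 30.8% were highest in Db + Ato10 replicate 1 and 16.0% lowest in Db + Ato10 replicate 2.

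Levels between genes were compared in TPM, which is scaled to length. In the Db group the order was Podxl (72.6 ± 17.2 TPM, SD, n = 3), Cd2ap (45.4 ± 4.44), Synpo (22.0 ± 4.77), Nphs1 (11.3 ± 2.62), Wt1 (5.67 ± 1.65), Ptpro (4.69 ± 0.386), Magi2 (3.24 ± 0.701) and Plce1 (1.55 ± 0.200). Wt1 and Ptpro were the neighbours that differed by less than their spread. In the Db + Ato10 group Podxl (55.7 ± 23.5 TPM, SD, n = 3) and Cd2ap (52.6 ± 14.2) differed by less than their spread. The same held for Nphs1 (7.28 ± 4.77), Ptpro (6.19 ± 3.93) and Wt1 (5.48 ± 3.23), and for Magi2 (2.21 ± 0.477) and Plce1 (1.78 ± 0.448). Synpo, at 21.9 ± 6.06 TPM, kept its place between these sets.

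Ratios within a library do not depend on the scaling between libraries. Podxl had 6.43, 6.31 and 6.46 times the TPM of Nphs1 in Db replicates 1 to 3, and 6.93 and 6.78 times in Db + Ato10 replicates 1 and 3. In Db + Ato10 replicate 2 it had 15.7 times. The shortfall of Nphs1 in Db + Ato10 replicate 2 was therefore larger than that of Podxl. The ratios were chosen after the levels had been seen and were not tested.

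Likeness to Nphs1 was measured as Pearson's r of log2 CPM over the 6 libraries, as a description. Podxl followed it most closely among the members (r = 0.97, rank 20 of 13678 genes). The values were 0.80 for Ptpro, 0.62 for Synpo, 0.49 for Wt1, 0.21 for Magi2, 0.19 for Plce1 and -0.83 for Cd2ap. The 5 genes most like Nphs1 were Mbd4, Egln1, Ehd3, Sod2 and Robo4, with r from 0.989 to 0.996. Ehd3 and Robo4 are known from endothelium, Ehd3 from that of the glomerulus. Ehd3 had 57.2, 45.3 and 44.8 CPM in Db replicates 1 to 3 and 48.4, 22.6 and 42.8 CPM in Db + Ato10 replicates 1 to 3. Some of these coefficients lean on 1 library. Without Db + Ato10 replicate 2, over 5 libraries, r was 0.98 for Podxl and 0.94 for Ehd3, but 0.86 for Wt1, 0.79 for Synpo, 0.60 for Ptpro and 0.49 for Plce1. It turned sign for Cd2ap, to 0.51, and for Magi2, to -0.29.

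The transcript table resolved the 8 genes into 31 RefSeq transcripts, of which 18 had enough counts to be tested. Of these, 0 were called, beside 0 of 30175 transcripts (0%). At an unadjusted p under 0.05 edgeR counted 2 of the 18, both of Cd2ap, beside 2471 of all transcripts (8.19%). The groups did not overlap for 3 of the 18, beside 5594 of all (18.5%). Shares between transcripts of a gene are estimates from shared reads and are less certain than the gene's total.

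Cd2ap held the transcript with the smallest p of the 18. XM_011246265.2 had 0, 0.42 and 0 expected counts in Db replicates 1 to 3, and 182, 311 and 232 in Db + Ato10 replicates 1 to 3. Its mean CPM was at least 70.7-fold higher in the Db + Ato10 group than the level of 3 counts in each Db library. The edgeR adjusted p was 0.359 (unadjusted 0.000107). Of 30175 transcripts, 10 (0.0331%) rounded to 0 in each library of 1 group and had at least 100 counts in each of the other, 8 of them at 0 in the Db group. This pattern was counted after the values of the transcript had been seen. Read assignment, a sequence difference between the mice and expression cannot be told apart as its source, so the fold is one of assigned counts. XM_011246264.2 had 26.5, 34.0 and 29.2 CPM in Db replicates 1 to 3, and 12.0, 17.5 and 21.1 CPM in Db + Ato10 replicates 1 to 3. Each treated library lay under each Db library (log2 fold change -0.83, standard error 0.26, edgeR adjusted p = 0.523). Added together, the 2 transcripts took 17.8%, 22.6% and 23.2% of the gene's counts in the Db libraries. In Db + Ato10 replicates 1 to 3 they took 15.1%, 17.8% and 27.4%, so the groups overlapped for the sum. The main transcript, NM_009847.3, held 78.8% ± 3.04 (SD, n = 3) in the Db group and 79.9% ± 6.47 (SD, n = 3) in the Db + Ato10 group.

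For Ptpro the counts were divided mainly between 2 transcripts, and the shares were not tested. NM_001164401.1 took 91.6%, 60.0% and 84.4% of the gene's counts in Db replicates 1 to 3, and 24.8%, 8.27% and 50.6% in Db + Ato10 replicates 1 to 3. In CPM it had 15.7, 9.22 and 12.6 in the Db libraries and 8.02, 0.688 and 7.25 in the treated libraries. The groups did not overlap in either measure, yet the log2 fold change of -1.23 had a standard error of 0.84 (edgeR adjusted p = 0.757). NM_001164403.1 had 1.43, 6.12 and 2.33 CPM in the Db libraries and 24.3, 7.98 and 5.52 in Db + Ato10 replicates 1 to 3, and its share was 8.40%, 40.0% and 15.6%, then 75.2%, 91.7% and 38.7%. Its groups overlapped in both measures (log2 fold change 1.93, standard error 0.82, edgeR adjusted p = 0.614). The first is the longer, at 50.0 expected counts per TPM over the 6 libraries beside 35.3 for the second. Shorter forms of Ptpro are known from macrophages and B lymphocytes. Of 10 leukocyte markers, the 7 tested were higher, 4 without overlap, beside 23.2% of all genes tested. At an unadjusted edgeR p under 0.05 were 7 of 7, beside 16.9% of all genes, with 0 called by edgeR and 6 by DESeq2, beside 6.46%. All 10 together summed to 79.4, 169 and 127 TPM in Db replicates 1 to 3. In Db + Ato10 replicates 1 to 3 the sum was 5145, 1197 and 180.5 TPM. The second transcript had the same order over these 3 libraries in CPM but not in share. Cd68, of macrophages, had 1.59, 5.72 and 4.12 CPM in the Db libraries and 178, 41.9 and 7.33 CPM in Db + Ato10 replicates 1 to 3. Lyz2 was the most abundant, at 38.9, 107 and 76.8 TPM in the Db libraries and 4395, 993 and 114 TPM in Db + Ato10 replicates 1 to 3, and Ms4a1 was at 0 in some libraries. Their part in the split of Ptpro was not tested.

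**Figure D3:**
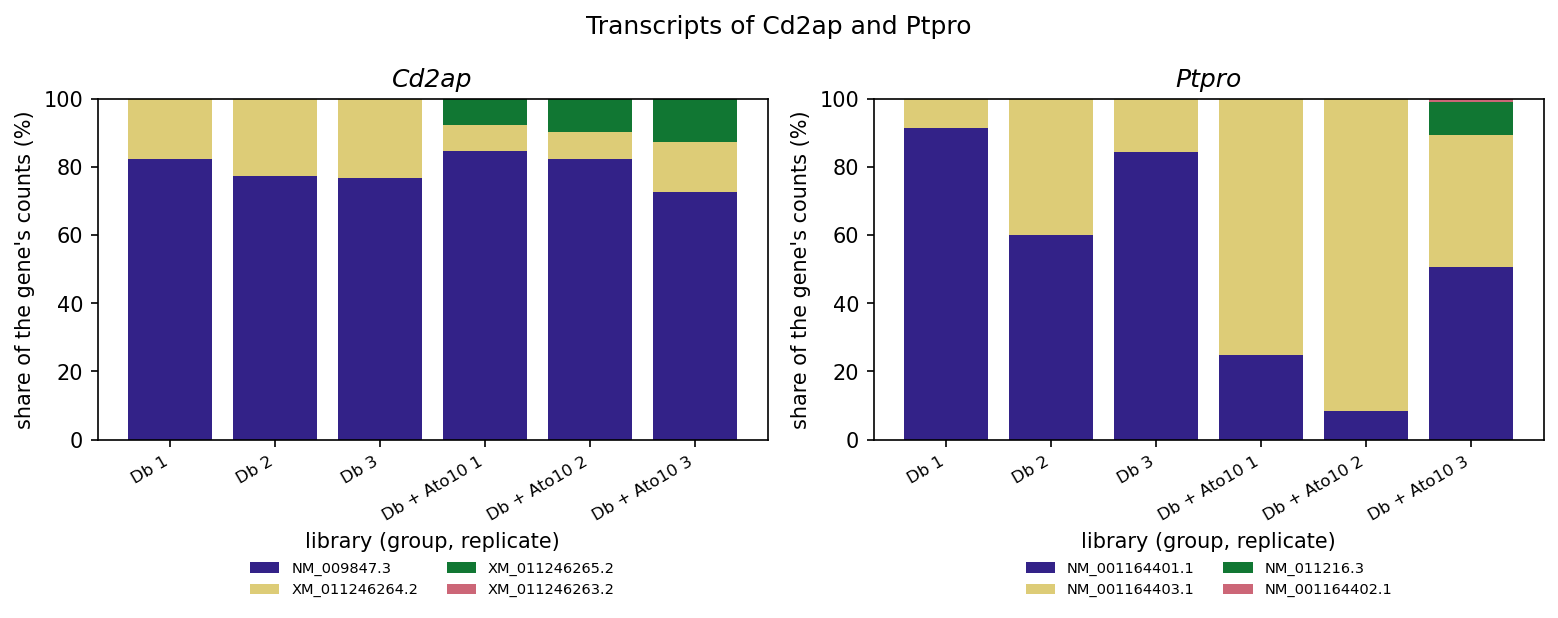
Share of each gene's expected counts (vertical axis, percent) assigned to each RefSeq transcript of Cd2ap and Ptpro in the 6 libraries. XM_011246265.2 of Cd2ap appears in the Db + Ato10 libraries, with 7.73%, 9.77% and 12.7%, and the share of NM_001164401.1 of Ptpro is lower in each Db + Ato10 library than in each Db library.

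Other genes of the slit diaphragm were listed beside the members. Of 18, 15 were tested, 8 higher and 7 lower with treatment, with a median log2 fold change of 0.0088. EdgeR and DESeq2 called 0 of them, with 2 at an unadjusted edgeR p under 0.05, beside 16.9% of all genes tested. The groups overlapped for all 15. Iqgap1, a nephrin-binding scaffold found in many cells, had a log2 fold change of 0.50 (adjusted p = 0.473 from the same edgeR test). The smallest p belonged to Cdh3 and Fat1, cadherins that other epithelia also express. Fat1 had 56.5, 51.0 and 53.7 CPM in Db replicates 1 to 3 and 102, 108 and 56.1 CPM in Db + Ato10 replicates 1 to 3 (log2 fold change 0.73, edgeR adjusted p = 0.252). Cdh3 had a log2 fold change of 1.17 (edgeR adjusted p = 0.243).

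Of 17 genes of the podocyte cytoskeleton, 16 were tested and 12 were higher, with a median log2 fold change of 0.32. The groups did not overlap for 5 of the 16, 4 higher and 1 lower, beside 23.2% of all genes tested. At an unadjusted edgeR p under 0.05 were 6 of 16, beside 16.9% of all genes, with 0 called by edgeR and 2 by DESeq2, beside 6.46%. Most are shared with other cells. Arhgdia and Vcl, the latter an adhesion protein, had log2 fold changes of 0.54 and 0.53 (edgeR adjusted p = 0.290 and 0.239). Ezr had 0.33 (edgeR adjusted p = 0.412). Arhgap24, a Rac inhibitor of podocytes that tubules also express, had 252, 202 and 248 CPM in Db replicates 1 to 3. It had 102, 125 and 165 CPM in Db + Ato10 replicates 1 to 3 (log2 fold change -0.84, edgeR adjusted p = 0.239), with each treated library under each Db library.

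Among 10 genes listed as podocyte transcription factors and regulators, 6 were higher and 4 lower, with a median log2 fold change of 0.076. The groups did not overlap for 1 of the 10, which was higher, beside 23.2% of all genes tested. At an unadjusted edgeR p under 0.05 was 1, also higher, beside 16.9% of all genes. EdgeR and DESeq2 called 0 of the 10, beside 6.46% of all genes by DESeq2. Tcf21 had 13.4, 12.9 and 12.8 CPM in Db replicates 1 to 3 and 18.8, 9.32 and 13.5 CPM in Db + Ato10 replicates 1 to 3, on either side of the Db range. Pax2 and Osr2 had log2 fold changes of -0.32 and -0.55 (edgeR adjusted p = 0.438 and 0.345), as levels of whole kidney rather than of podocytes. Of 20 other podocyte-enriched genes, 12 were lower and 8 higher, with a median of -0.10. EdgeR called 0 of these 20, with 2 at an unadjusted p under 0.05 beside 16.9% of all genes, and DESeq2 called 1, beside 6.46%. Vegfa, the growth factor by which podocytes sustain the capillary, had a log2 fold change of -0.33 (edgeR adjusted p = 0.428), Htra1 of -0.44 (0.249) and Sulf1 of 2.60 (0.239). Such levels are those of whole kidney, and the share that podocytes contribute was not tested.

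Genes of the glomerular basement membrane and of podocyte anchorage numbered 15, 9 higher and 6 lower, with a median log2 fold change of 0.19. Lama5, a laminin chain of the mature membrane, had 111, 127 and 117 CPM in Db replicates 1 to 3 and 232, 191 and 154 CPM in Db + Ato10 replicates 1 to 3. Each treated library was above each Db library (log2 fold change 0.70, edgeR adjusted p = 0.239). Agrn, Cd151 and Itgb1 had log2 fold changes of 0.98, 0.55 and 0.50 (edgeR adjusted p = 0.239, 0.239 and 0.343). These 4 genes are expressed beyond the glomerulus as well. The collagen chains of the mature membrane, Col4a3, Col4a4 and Col4a5, had log2 fold changes of -0.52, -0.56 and -0.29 (edgeR adjusted p = 0.380, 0.256 and 0.398). Which cells of the whole kidney carry these chains was not tested either, so the values do not show a split within the glomerular membrane. Col4a4 had 236, 194 and 198 CPM in the Db libraries and 163, 109 and 155 CPM in the treated libraries, without overlap. In the list, 4 of 15 genes did not overlap, beside 23.2% of all genes tested. For these 15 edgeR called 0, with 4 at an unadjusted p under 0.05 beside 16.9% of all genes, and DESeq2 called 1, beside 6.46%.

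Some lists of other glomerular cells also had low values in Db + Ato10 replicate 2. It was the lowest library for 9 of 12 genes of the glomerular endothelium and 5 of 10 genes of the mesangium and its neighbours, beside 16.0% of all genes tested. The same count was 3 of 8 among the podocyte members, 7 of 10 among the podocyte transcription factors and 12 of 20 among the other podocyte-enriched genes. It was 2 of 16 for the podocyte cytoskeleton, 4 of 15 for basement membrane and anchorage and 5 of 15 for other slit diaphragm genes. Emcn had 74.9, 61.2 and 71.7 CPM in Db replicates 1 to 3 and 116, 42.6 and 72.1 CPM in Db + Ato10 replicates 1 to 3. Ren1, the renin gene of cells at the glomerular entrance, had 89.0, 77.5 and 52.8 CPM in the Db libraries and 102, 8.85 and 59.2 CPM in Db + Ato10 replicates 1 to 3. Kdr, the main receptor for Vegfa, had 64.4, 40.7 and 55.5 CPM in the Db libraries and 25.0, 14.7 and 37.9 CPM in the treated libraries (log2 fold change -1.05, edgeR adjusted p = 0.246). Sost, also lower without overlap, had -1.54 (edgeR adjusted p = 0.246), and Plat, a plasminogen activator, 0.67 (edgeR adjusted p = 0.430). Of the 12 endothelial genes, 5 were higher and 7 lower, and the groups did not overlap for 3, beside 23.2% of all genes tested. At an unadjusted edgeR p under 0.05 were 2 of the 12, beside 16.9% of all genes, with 0 called by edgeR or DESeq2. Among mesangial genes, Pdgfrb, Gata3 and Serpine2 had log2 fold changes of 0.95, -0.37 and 0.79 (edgeR adjusted p = 0.283, 0.320 and 0.401). Of the 10 mesangial genes, 5 were higher and 5 lower, 1 was without overlap and 1 had an unadjusted edgeR p under 0.05. EdgeR and DESeq2 called 0 of these 10 genes. Distal markers were also lowest in Db + Ato10 replicate 2, with 7 of 8 genes of the thick ascending limb and distal tubule and 6 of 7 of the collecting duct. It was the lowest for 0 of 8 genes of the parietal epithelium, 1 of 8 of the proximal tubule, 0 of 7 leukocyte, 0 of 4 mesothelial and 1 of 7 squamous and urothelial genes. The lowest library counts were compiled after the values had been seen, and whether the amount of glomerulus in the tissue taken has a part in them was not tested.

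Promoter windows were examined for the members in a RefSeq table (build GRCm38.p6) of 32851 windows, each of 300 bases around a gene's start. The table held 6 windows for 5 of the members, Nphs1, Cd2ap, Magi2, Ptpro and Plce1. Both strands were searched for GCGGGGGCG and GCGTGGGNG (letters bound by WT1), and for TAATTA (bound by LMX1B). These were in 2.91%, 1.90% and 5.29% of all windows. A match of GCGTGGGNG was in 1 window of Magi2, at position 132 from its 5′ end on the opposite strand, and TAATTA was in its other window. The windows of Nphs1, Cd2ap, Ptpro and Plce1 held 0 matches. A match describes the letters and no binding was measured. The window of Nphs1, the gene the other values are set against, and that window of Magi2, the member with the smallest p, follow with the match in capitals, 5′ to 3′ on the plus strand.
Nphs1, chr7:30459808-30460107: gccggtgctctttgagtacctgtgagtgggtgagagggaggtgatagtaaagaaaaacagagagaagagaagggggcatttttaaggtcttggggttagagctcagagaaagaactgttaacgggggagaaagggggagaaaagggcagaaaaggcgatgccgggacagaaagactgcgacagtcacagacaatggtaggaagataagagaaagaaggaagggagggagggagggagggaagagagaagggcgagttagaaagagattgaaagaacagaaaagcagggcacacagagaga
Magi2, chr5:19226796-19227095: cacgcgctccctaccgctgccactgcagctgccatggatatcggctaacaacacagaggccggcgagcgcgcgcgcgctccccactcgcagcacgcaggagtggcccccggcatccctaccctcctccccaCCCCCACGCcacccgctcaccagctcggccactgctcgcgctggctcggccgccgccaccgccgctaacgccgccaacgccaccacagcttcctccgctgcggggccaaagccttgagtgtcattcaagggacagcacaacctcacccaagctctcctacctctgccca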

How the data were processed

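Kidney RNA of 6 mice was measured. Expected counts deposited by the authors, estimated reads without normalization, cover genes and transcripts. The authors also deposited FPKM (per length and library size) and TPM (per length, scaled to an equal total). The submitters' processing notes name HISAT, Bowtie2 2.2.5 and the build mm9, without roles. The counting tool and the RNA selection are not given in the sources used here. Groups came from the sample labels. Counts were rounded to whole numbers, and genes that reached 10 counts in 3 or more libraries entered edgeR 4.0.16 in R 4.3.3 (TMM, quasi-likelihood F test, Benjamini-Hochberg over all genes). Standard errors are the log2 fold change over the square root of F, and 95% intervals use the test's degrees of freedom. Log2 CPM used a prior count of 2. Exact permutation tests were two-sided on mean log2 CPM. The fit was also run on simulated data, and the outcome is not reported here. Alternatives were DESeq2 1.42.0, limma 3.58.1 (voom, or log2 of TPM or FPKM plus 1), upper-quartile scaling, other count filters, a replicate block and each library left out. Leaving out replicate 1 of both groups was chosen after the data were seen. The members and the 15 gene lists were chosen with earlier results of these data known. From each list the 2 genes with the smallest p and the 2 with the highest TPM are named, with defining markers, all members the 5 genes most like Nphs1 and, added after their values were seen, the 3 type IV collagen chains of the mature membrane. From the lists of parietal epithelium and tubule, only counts and medians are given, with Krt8 as an example and a sum for the proximal tubule. For the lists of mesothelium and urothelium, genes are also named beside the medians, after their values were seen. Some genes that this rule selects are not reported here. Per-sample FPKM columns of the transcript table, 6 in all, were not used. The separate mice are taken as replicates. Python 3.11.15 with matplotlib 3.10.9 made the plots.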

Additional observations from a re-analysis of the deposited data

How the results depend on the processing

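Of 120 member values under 15 alternatives, 17 changed sign, and 0 passed the threshold. Nphs1, Cd2ap, Plce1 and Magi2 kept their sign in each. The number of members called was 0 in each alternative. The number of genes called in the whole table was 0 with edgeR (2314 at an unadjusted p under 0.05) and 884 with DESeq2, and from 0 to 1106 with a library left out, the latter without Db + Ato10 replicate 3. The number of members at an unadjusted p under 0.05 ran from 0 to 1 with a library left out. The number of members higher in the Db + Ato10 group was 5, and 3 with limma-voom, with the replicate block and with limma on TPM. It ran from 2 to 6 with a library left out, 6 without Db + Ato10 replicate 2, and was 2 without replicate 1 of both groups. Limma-voom gave -0.052 for Wt1 and -0.015 for Ptpro, and the replicate block -0.072 and -0.015. Limma on TPM gave -0.12 for Wt1 and -0.022 for Synpo, and limma on FPKM -0.017 for Wt1. Without replicate 1 of both groups, Wt1, Synpo and Ptpro had -0.33, -0.052 and -0.42. With each library left out, the log2 fold change ran from -0.58 to 0.35 for Wt1, -0.63 to 0.054 for Podxl, -0.20 to 0.28 for Synpo and -0.47 to 0.54 for Ptpro. The cause was not tested. Same-numbered libraries had correlations of their deviations of -0.15, 0.061 and 0.21. With so few libraries these values cannot tell whether the numbers pair the mice, and the labels do not say so. The replicate block called 0 genes (1856 at an unadjusted edgeR p under 0.05).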

Other observations

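Lists named for other kidney cells were counted in the same way, and which cells of the whole kidney carry their genes was not tested. All 8 genes listed for the parietal epithelium, which lines Bowman's capsule opposite the podocytes, were higher (median log2 fold change 1.22). Krt8 had 113, 134 and 143 CPM in Db replicates 1 to 3 and 242, 273 and 193 CPM in Db + Ato10 replicates 1 to 3 (log2 fold change 0.86, edgeR adjusted p = 0.239). Of the 7 tested genes listed for squamous epithelium and urothelium 6 were higher (median log2 fold change 5.25). These 6 were keratins, Trp63 and Sprr1a. Upk1a, of urothelium, had -0.66, and Upk1b, Upk2 and Upk3a had too few counts to be tested. Of the 4 tested genes listed for mesothelium 3 were higher (median 2.25). Msln and Krt19 had 4.66 and 4.34, while Upk3b had 0.17 and Gpm6a -0.84. All 8 genes of the proximal tubule, 8 of the thick ascending limb and distal tubule, and 7 of the collecting duct were lower, with medians of -0.81, -1.12 and -0.68. In the order given, the groups did not overlap for 3, 5, 2, 1, 6 and 5 tested genes of these 6 lists, beside 23.2% of all genes. They had 6, 6, 2, 0, 5 and 5 genes at an unadjusted edgeR p under 0.05, beside 16.9% of all genes tested. EdgeR called 0 genes in each, and DESeq2 called 4, 5, 2, 0, 4 and 3, beside 6.46% of all genes.

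With 3 mice in each group, the intervals of the podocyte genes are wide, and a p that misses the threshold does not show that the groups were alike. Whole kidney holds few podocytes, and protein, foot processes and albuminuria were not analysed here. Reads of genes shared with other cells, such as Cd2ap and Podxl, do not count podocytes alone.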
